A study of Mus musculus with 24 samples.

Results

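The 36 genes described here encode ribosome biogenesis factors: proteins of the box C/D and box H/ACA snoRNPs, nucleolar chaperones and scaffolds, subunits of RNA polymerase I and factors that assemble the small and the large ribosomal subunit. They were chosen by name from a list, with earlier results of these data known. Counts of members in 1 direction below are thus descriptions and not independent support. All 36 were found among the 56941 gene IDs of the deposited counts. All were among the 13281 genes that passed the filter on low counts. The libraries come from polyadenylated RNA of a cell line labelled as adult mouse hypothalamic neurons, grown in normal or in high glucose. Some cultures received mogroside V, a sweet-tasting glycoside from the fruit of Siraitia grosvenorii. The control of each medium is called NGC or HGC, and treated cultures in normal glucose (NG1, NG2, NG3) or in high glucose (HG1, HG2, HG3) carry dose labels 1 to 3. The series design names 15, 60 and 160 µM, but the concentration behind each dose label is not stated, so groups are named by label. All groups come from the same cell line and differ in the labels by medium and dose alone. Each of the 8 groups had 3 libraries, and the main question was whether the members stood lower or higher in NG2 than in the other groups.

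Ribosomes are made in the nucleolus, where RNA polymerase I transcribes the precursor of the large ribosomal RNAs. Box C/D snoRNPs guide 2′-O-methylation of that precursor, box H/ACA snoRNPs guide pseudouridylation, and the processome and further assembly factors cleave, fold and package it with ribosomal proteins into the small and the large subunit. The pathway is costly to a cell, and its genes are commonly regulated together with growth, for example through the transcription factor MYC, which binds the E-box CACGTG.

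HG2 replicate 3 and HG3 replicate 2 held identical counts for every gene, so that library was left out of both groups, which leaves 22 libraries and n = 2 in HG2 and in HG3. Gene counts per library ranged from 3396249 to 7773074 with a median of 3864825.5, and the deepest library was NG2 replicate 1. NG3 replicate 3 stood apart, with a level of 875 CPM (a gene's reads scaled to library size) of the nuclear RNA Malat1 against 3182 to 4734 in the other 21 libraries, and its member values are given beside the results it touches. Of 10 listed neuron markers 6 passed the filter: the cytoskeleton genes Map2 (33.2 to 69.5 CPM) and Tubb3 (41.7 to 76.2 CPM), Stmn2 (13.0 to 28.6 CPM), and Syn1, Nefl and Nefm, which ran from 0.384 to 9.86 CPM. Rbfox3, Snap25 and Syt1 stayed at or below 1.09 CPM, Elavl4 was at 0 in every library, and none of 8 hypothalamic neuropeptide genes exceeded 1.06 CPM. Of 8 listed fibroblast and pericyte markers 7 passed, with Col1a1 at 977 to 1596 CPM, while Lum did not exceed 0.464 CPM. No label says that replicates were separate cultures, so p-values measure the spread between these libraries, which may be technical.

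The promoters were searched for the E-box because the members are set side by side as one pathway, and 30 of the 36 had an entry in the RefSeq promoter table (GRCm38.p6), which spans 250 bases before to 50 after each gene's start. The letters CACGTG, which read the same on both strands, occurred in 6 of the 30 (20%) and in 2187 of 27025 genes in the table (8.09%). The table also holds genes that did not pass the filter, and the share over tested genes alone was not counted. No excess in the members is thus read from these shares. The match is a description of letters and not a binding site. For Nop2, the gene named in full below that holds it, the match began 60 bases before the start, and the 250 bases upstream (chr6:125131633-125131882, plus strand) are shown with CACGTG in capitals.
Nop2: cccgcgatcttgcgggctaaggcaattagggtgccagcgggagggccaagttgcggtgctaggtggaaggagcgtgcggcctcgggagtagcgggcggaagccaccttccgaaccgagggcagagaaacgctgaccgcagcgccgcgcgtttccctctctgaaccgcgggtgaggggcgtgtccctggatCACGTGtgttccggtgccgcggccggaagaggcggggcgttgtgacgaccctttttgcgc
Wdr43 and Utp4, the small subunit processome genes with the lowest p in NG2, held the same letters just after the start, and 30 bases around the match are shown for each (chr17:71616220-71616249 and chr8:106893643-106893672, both plus strand).
Wdr43: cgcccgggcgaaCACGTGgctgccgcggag
Utp4: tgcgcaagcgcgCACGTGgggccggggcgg
The other matches were in the promoters of Pes1, Mybbp1a and Utp20. Rrs1, Npm1, Fbl, Bop1, Rrp12 and Tcof1 had no entry.

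Summed over the 36 members, the level was 4574, 4984 and 4914 CPM in the 3 NG2 libraries and 6088, 6039 and 5666 CPM in the 3 NGC libraries. NG2 replicate 1 had the lowest sum of all 22 libraries. The other 19 libraries ran from 4824 CPM in NG3 replicate 3 to 6088 CPM in NGC replicate 1, so the NG2 libraries overlapped with that 1 library only. Group means ± SD were 5931 ± 231 CPM in NGC, 5299 ± 115.5 in NG1, 4824 ± 219 in NG2 and 5144 ± 280.2 in NG3 (n = 3 each). In high glucose they were 5524 ± 215.5 CPM in HGC and 5667 ± 57.0 in HG1 (n = 3 each), 5428 ± 76.1 in HG2 and 5886 ± 127 in HG3 (n = 2 each). NGC and HG3 were thus the highest groups and NG2 the lowest, while NG1 and NG3 lay between NGC and NG2. The library deposited under both HG2 and HG3 had a sum of 5548 CPM. Ncl and Npm1, with means of 1675 and 772 CPM over the 22 libraries, weigh most in these sums. The mean log2 CPM, which weighs all members alike, was 6.34 in NGC, 6.22 in NG1, 6.10 in NG2 and 6.20 in NG3. In high glucose it was 6.29 in HGC, 6.29 in HG1, 6.31 in HG2 and 6.42 in HG3. In these bulk libraries fewer cells with a high content of these transcripts and less of them per cell cannot be told apart.

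**Figure D1:**
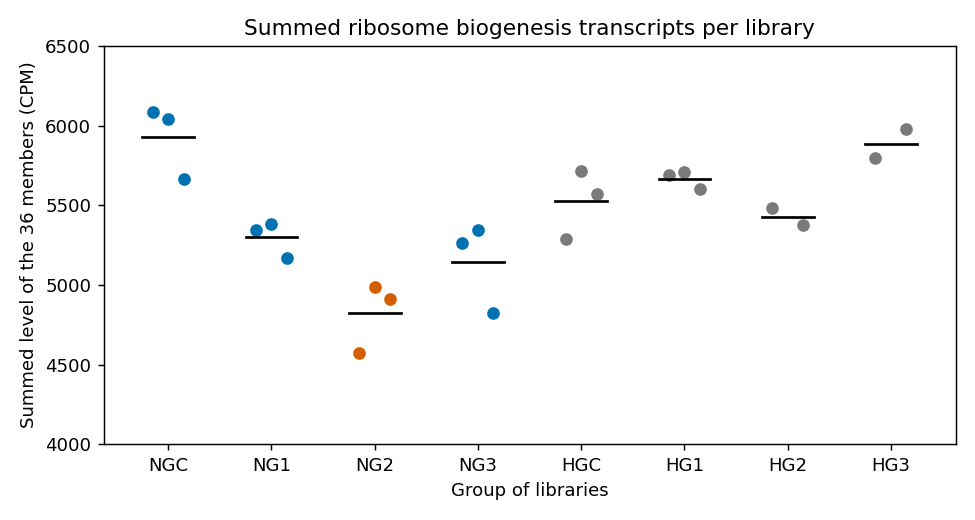
Summed CPM of the 36 members (vertical axis, which does not start at 0) in each of 22 libraries, by group, with a line at the group mean; normal glucose in blue, NG2 in orange and high glucose in grey. The 3 NG2 libraries sit between 4574 and 4984 CPM, and NG3 replicate 3 is the lowest of the rest at 4824 CPM. Ncl and Npm1 weigh most in the sum.

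NG2 had the lowest mean CPM of the 8 groups for 17 of the 36 members and the highest for 0, whereas 6.84% of all tested genes had their lowest mean in NG2. Without NG3 replicate 3 the count was 21 of 36 (6.70% of all genes). Without NG2 replicate 1 it was 11 of 36 (10.1% of all genes). HG3 had the highest mean for 14 members (11.4% of all genes). By single library, NG3 replicate 3 was the lowest of 22 for 11 members and NG2 replicate 1 for 9, so 2 libraries held the minimum of 20 members. The share of all tested genes with their minimum in these libraries was not counted. The counts by library are thus not read as a trait of the members.

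Against the control in the same medium, 35 of 36 members had a negative log2 change in NG2, with a median of -0.28, against a median of 0.01 over all tested genes and 48.9% of them below 0. No single member passed the threshold: 0 of 36 were called at an edgeR quasi-likelihood adjusted p under 0.05, where 0% of all tested genes were called lower and 0.00753% higher. At an unadjusted p under 0.05, 16 members were lower and 0 higher (3.16% and 3.30% of all genes). CPM values of the libraries did not overlap for 14 members, all lower in NG2 (4.22% of all genes lower, 9.35% higher). DESeq2 called 4 of the members, Nop58, Dkc1, Ncl and Rrp1b, and 25 genes in all. Without NG3 replicate 3 and HGC replicate 2, edgeR called 2 members, Dkc1 and Ddx21, of 17 genes in all. Those 2 libraries belong to neither group but enter the shared estimate of the spread. In 6 fits that left out 1 library of NG2 or NGC, 0 members were called and the median stayed between -0.33 and -0.26.

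Over all 7 other groups, 35 of 36 members had a negative log2 change in NG2 (47.0% of all genes), with a median of -0.24. None of the 36 was called by edgeR, where 0.233% of all genes were called lower and 0.0527% higher. At an unadjusted p under 0.05, 19 members were lower and 0 higher (4.19% and 4.71% of all genes). DESeq2 called Ncl, Npm1 and Rrs1, of 95 genes in all. This comparison uses the NG2 and NGC libraries of the preceding one again. It also takes in all high-glucose groups. Its median was -0.24, where that against the other 3 normal-glucose groups was -0.16. Without NG3 replicate 3, edgeR called 4 members, Ncl, Npm1, Gnl3 and Rrs1. It called 97 genes in all there, against 38 with all 22 libraries. Without NG2 replicate 1 it called 0 members and 7 genes in all, and 7 members had an unadjusted p under 0.05 in place of 19.

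**Figure D2:**
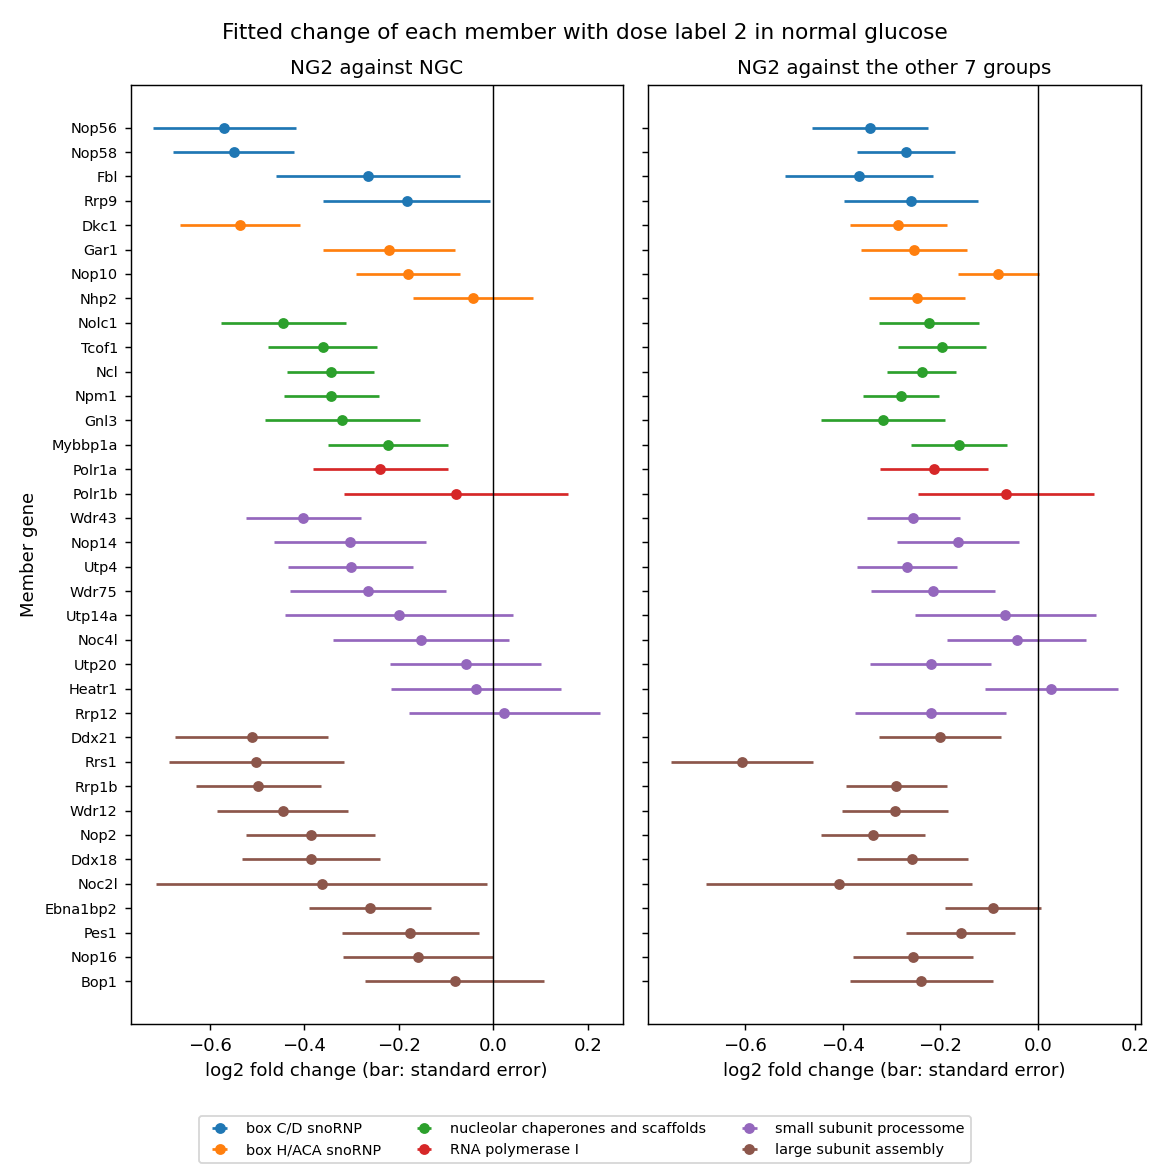
Fitted log2 fold change of each member (horizontal axis) in NG2 against NGC on the left and against the other 7 groups on the right, with bars of 1 standard error and colours by role. All members but Rrp12 on the left and all but Heatr1 on the right lie below 0.

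The box C/D snoRNP is built from the methyltransferase fibrillarin and the scaffold proteins Nop56 and Nop58, and Rrp9 belongs to the U3 particle. Nop56 was at 126, 95.3 and 79.1 CPM in NGC, 88.1, 91.5 and 82.1 in NG1, 57.2, 74.7 and 79.5 in NG2, and 87.7, 59.2 and 68.5 in NG3. In high glucose it was at 86.9, 76.7 and 92.6 CPM in HGC, 84.3, 69.1 and 70.5 in HG1, 97.2 and 95.5 in HG2, and 91.1 and 99.7 in HG3. The highest NG2 library lay just above the lowest NGC library, NG2 overlapped with NG3, and both HG2 libraries lay above all NG2 libraries. The log2 change of Nop56 was -0.57 ± 0.15 (SE) against NGC (edgeR adjusted p = 0.227) and -0.34 ± 0.12 against the other 7 groups (edgeR adjusted p = 0.289). Nop58 was at 399.8, 344 and 288 CPM in NGC and 205, 284 and 241 CPM in NG2, with no overlap (log2 change -0.55 ± 0.13, edgeR adjusted p = 0.170). Fbl, the methyltransferase gene, was at 26.7, 29.0 and 25.8 CPM in NGC and 26.9, 22.1 and 20.4 CPM in NG2, and these groups overlapped. All 4 genes of the particle had negative changes in both comparisons, from -0.57 to -0.18 against NGC.

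In the box H/ACA snoRNP, Dkc1 encodes the pseudouridine synthase dyskerin, and Nop10, Nhp2 and Gar1 its partner proteins. Dkc1 was at 223, 172 and 168 CPM in NGC, 138, 141 and 149 in NG1, 115, 147 and 141 in NG2, and 155, 135 and 111 in NG3. In high glucose Dkc1 was at 147, 163 and 149 CPM in HGC, 159.6, 151 and 165 in HG1, 183 and 164 in HG2, and 167 and 173 in HG3. Every NGC library lay above every other library in normal glucose, so the 3 dosed groups overlapped with each other and none with the control. The log2 change of Dkc1 in NG2 was -0.54 ± 0.13 against NGC (edgeR adjusted p = 0.170) and -0.29 ± 0.10 against the other 7 groups (edgeR adjusted p = 0.294). Its changes in NG1 and NG3 against the same NGC libraries were -0.43 and -0.55. Gar1 had a log2 change of -0.22 and Nop10 of -0.18 in NG2 against NGC, while Nhp2 was close to the control at -0.04.

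Among nucleolar chaperones and scaffolds, nucleolin (Ncl) and nucleophosmin (Npm1) are the abundant proteins of the nucleolus. Over the 22 libraries the mean level was 1675 CPM for Ncl and 772 CPM for Npm1. Per kilobase of exon, with all annotated exons of a gene joined, the order differed. By that measure Npm1 had the highest mean of all members (289.8 CPM per kilobase), and Nop10 (215 CPM per kilobase) and Ncl (164) followed. The joined exons can be longer than any 1 transcript (10188 bases for Ncl, 2665 for Npm1), so this order depends on the length used. Polr1b was the lowest at 2.77 CPM per kilobase. Npm1 has 4 similar pseudogenes, so reads that fit them too may be missing from its count or misplaced.

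Ncl was at 1776, 1884 and 1799 CPM in NGC, 1666, 1607 and 1685 in NG1, 1424, 1526 and 1492 in NG2, and 1639, 1609 and 1465 in NG3. In high glucose Ncl was at 1646, 1818 and 1794 CPM in HGC, 1712, 1764 and 1746 in HG1, 1644 and 1584 in HG2, and 1729 and 1847 in HG3. The NG2 libraries lay below all others apart from NG3 replicate 3. The log2 change of Ncl was -0.34 ± 0.09 against NGC (edgeR adjusted p = 0.227) and -0.24 ± 0.07 against the other 7 groups (edgeR adjusted p = 0.172, and 0.0152 without NG3 replicate 3).

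Npm1 was at 799, 832 and 815 CPM in NGC, 806, 736 and 695 in NG1, 622, 729 and 641 in NG2, and 715, 799 and 680.5 in NG3. In high glucose Npm1 was at 739, 836 and 765 CPM in HGC, 889, 933 and 853 in HG1, 728 and 754 in HG2, and 794 and 824 in HG3. A pair of NG2 libraries were the lowest of all 22, and HG1 held the 3 highest. Npm1 had a log2 change of -0.34 ± 0.10 against NGC (edgeR adjusted p = 0.352) and -0.28 ± 0.08 against the other 7 groups (edgeR adjusted p = 0.117). Nolc1, a chaperone of snoRNPs, was at 136, 138 and 121 CPM in NGC and 93.0, 105 and 104 CPM in NG2, and those groups did not overlap (log2 change -0.44 ± 0.13, edgeR adjusted p = 0.385). The changes of Tcof1, which supports ribosomal RNA transcription, Gnl3 (nucleostemin) and Mybbp1a were -0.36, -0.32 and -0.22.

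RNA polymerase I was represented by its largest subunits, Polr1a and Polr1b. Polr1a was at 73.9, 116 and 85.8 CPM in NGC and 72.3, 83.7 and 85.5 CPM in NG2, and the groups overlapped. Its log2 change was -0.24 ± 0.14 against NGC (edgeR adjusted p = 0.839) and -0.21 ± 0.11 against the other 7 groups (edgeR adjusted p = 0.597). Polr1b, at 10.8 to 21.1 CPM in NG2 and 15.7 to 16.6 CPM in NGC, had a change of -0.08 ± 0.24, and its NG2 libraries lay on both sides of those of NGC.

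The small subunit processome had 8 of its 9 listed members below 0 in NG2 against NGC, with a median of -0.20. Wdr43, a component of its UtpA module that binds the precursor early, was at 232, 200.4 and 168 CPM in NGC and 132, 159 and 181 CPM in NG2, and those groups overlapped. Its log2 change was -0.40 ± 0.12 against NGC (edgeR adjusted p = 0.406) and -0.26 ± 0.10 against the other 7 groups (edgeR adjusted p = 0.351). Utp4, another UtpA protein, was at 73.3, 68.2 and 83.4 CPM in NGC and 66.3, 56.0 and 66.0 CPM in NG2, with no overlap (log2 change -0.30 ± 0.13, edgeR adjusted p = 0.703). The changes of Nop14, Wdr75, Utp14a, Noc4l and Utp20 ran from -0.30 to -0.06, and those of Heatr1 and Rrp12 were -0.04 and 0.02. Utp14a stood apart in NG3 replicate 3, with 11.9 CPM there and 27.1 to 41.1 CPM in the other 21 libraries. Its annotated exons overlap an antisense gene, 9530027J09Rik, whose reads cannot be told apart without a strand setting.

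The large subunit assembly group had all 11 of its members below 0 in NG2 against NGC, with a median of -0.38, and included the member with the largest change over the 7 other groups. That gene was Rrs1, whose protein helps to bring the 5S RNP into the large subunit. Rrs1 was at 44.5, 42.8 and 31.5 CPM in NGC, 36.7, 54.5 and 42.2 in NG1, 24.2, 27.7 and 36.2 in NG2, and 45.6, 42.0 and 35.3 in NG3. In high glucose Rrs1 was at 44.4, 42.6 and 43.6 CPM in HGC, 44.9, 37.9 and 42.0 in HG1, 52.7 and 38.6 in HG2, and 54.0 and 38.0 in HG3. NG2 replicates 1 and 2 were the lowest of all 22 libraries, and NG2 replicate 3 lay above NGC replicate 3 and NG3 replicate 3. Rrs1 had a log2 change of -0.61 ± 0.15 against the other 7 groups (edgeR adjusted p = 0.0547) and -0.50 ± 0.18 against NGC (edgeR adjusted p = 0.582). Its changes in NG1 and NG3 against NGC were 0.13 and -0.02. Against NG1 and NG3 together its change in NG2 was -0.56 ± 0.16 (edgeR adjusted p = 0.849), and that of Dkc1 was -0.05 ± 0.11 (edgeR adjusted p = 0.997). The edgeR adjusted p of Rrs1 over the 7 groups ran from 0.0110 to 0.611 across the alternatives, and it was under 0.05 in 5 of 22 fits that left out 1 library.

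Nop2, an RNA methyltransferase of the large subunit pathway, was at 66.6, 63.2 and 59.7 CPM in NGC, 57.2, 53.4 and 59.3 in NG1, 47.2, 50.6 and 52.7 in NG2, and 62.4, 52.2 and 67.5 in NG3. In high glucose Nop2 was at 56.3, 58.7 and 59.3 CPM in HGC, 48.1, 66.8 and 63.9 in HG1, 64.5 and 61.8 in HG2, and 67.7 and 74.6 in HG3. NG2 lay below NGC and NG1 without overlap, while NG3 replicate 2 and HG1 replicate 1 reached into its range. Nop2 had a log2 change of -0.39 ± 0.14 against NGC (edgeR adjusted p = 0.554) and -0.34 ± 0.11 against the other 7 groups (edgeR adjusted p = 0.214). Ddx21, an RNA helicase of the nucleolus, was at 404, 370.1 and 329 CPM in NGC and 247, 272 and 282 CPM in NG2, with no overlap (log2 change -0.51 ± 0.16, edgeR adjusted p = 0.50). Rrp1b was at 74.1, 78.0 and 68.9 CPM in NGC and 48.2, 56.5 and 58.0 CPM in NG2, also with no overlap (log2 change -0.50 ± 0.13, edgeR adjusted p = 0.227). The PeBoW complex joins Pes1, Bop1 and Wdr12 in the processing of the large subunit RNAs. Its 3 genes had changes of -0.18, -0.08 and -0.45, and only the NG2 libraries of Wdr12 did not overlap with NGC. Nop16, Ebna1bp2, Ddx18 and Noc2l had changes between -0.38 and -0.16.

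**Figure D3:**
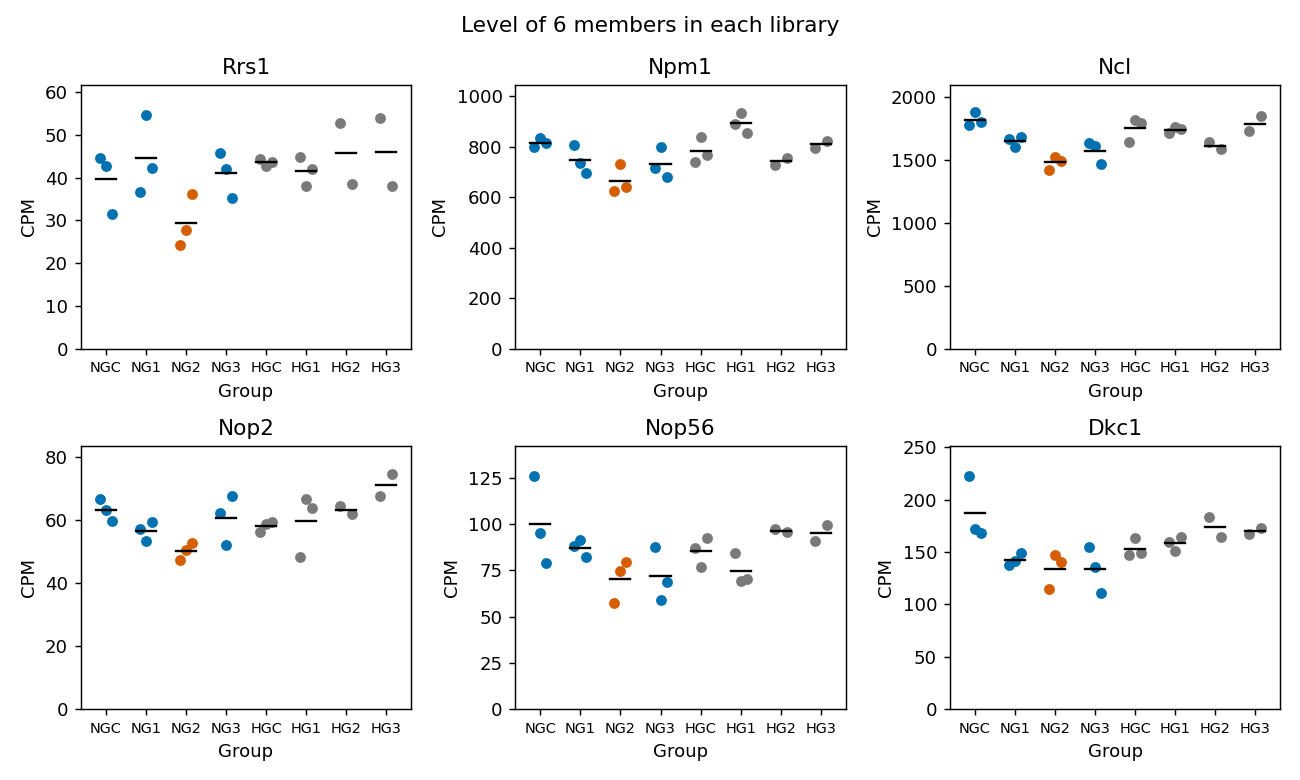
CPM of Rrs1, Npm1, Ncl, Nop2, Nop56 and Dkc1, the 6 members with the lowest p in NG2 against the other 7 groups, in each of 22 libraries by group (lines at group means, axes from 0; normal glucose in blue, NG2 in orange, high glucose in grey). NG2 has the lowest mean for Rrs1, Npm1, Ncl, Nop2 and Nop56, while Dkc1 is as low in NG3 as in NG2.

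Within normal glucose the members' medians in NG2 were nearer 0 once the other dosed groups entered. Against the mean of NGC, NG1 and NG3, 34 of 36 members were below 0 (48.5% of all genes) with a median of -0.16, 0 were called by edgeR (0% of all genes called lower, 0% higher), and 10 had an unadjusted p under 0.05, all lower (1.84% of all genes lower, 2.42% higher). Against the mean of NG1 and NG3, which leaves the control out, 30 of 36 were below 0 (48.6% of all genes) with a median of -0.11. There 0 members were called (0% of all genes in either direction), 4 were lower and 0 higher at an unadjusted p under 0.05 (1.82% and 2.06%), and 1 member, Rrp12, had NG2 libraries below all 6 others and 0 above them (0.941% and 1.08% of all genes). By DESeq2 0 members were called in the comparison with NG1 and NG3.

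The other 2 doses were set against the same 3 NGC libraries, so their values share those of NG2 on the control side. In NG1, 29 of 36 members were below 0 (48.8% of all genes) with a median of -0.17, 0 were called (0% of all genes in either direction), and 9 were lower and 0 higher at an unadjusted p under 0.05 (2.30% and 2.58% of all genes). In NG1, 8 members had libraries below and 1 above all NGC libraries (4.38% and 7.41% of all genes). In NG3, 26 of 36 were below 0 (49.2% of all genes) with a median of -0.18, 0 were called (0.120% of all genes lower, 0.00753% higher), and 14 were lower and 2 higher at an unadjusted p under 0.05 (6.05% and 4.31%). Libraries of NG3 lay below all NGC libraries for 9 members and above them for 2 (4.37% and 8.49% of all genes). DESeq2 called 7 members lower in NG3, Nop56, Dkc1, Ncl, Tcof1, Rrp1b, Ddx18 and Ddx21, of 150 genes in all, which is more than the 4 members it called in NG2, and it called 0 members in NG1. Without the low-count filter edgeR called 6 members in NG3, of 186 genes in all. With 1 library of NG3 or NGC left out it called 0 to 5 members. It called 5 without NG3 replicate 2 (182 genes in all), 3 without NG3 replicate 1 (106) and 3 without NGC replicate 3 (45). Without NG3 replicate 3, the library that stood apart, it called 0 members and 0 genes in all. The NG3 median was -0.12 without NG3 replicate 3 and -0.31 without NG3 replicate 2. Members with a negative change in all 3 doses included Nop56 (-0.24, -0.57 and -0.55 in NG1, NG2 and NG3) and Ddx21 (-0.35, -0.51 and -0.67). They are examples, and such members were not counted. The NG3 value of Ddx21 includes NG3 replicate 3, where Ddx21 was at 148 CPM, its lowest level of the 22 libraries. Bop1 differed in sign, with log2 changes of 0.36 in NG1, -0.08 in NG2 and 0.48 in NG3.

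**Figure D4:**
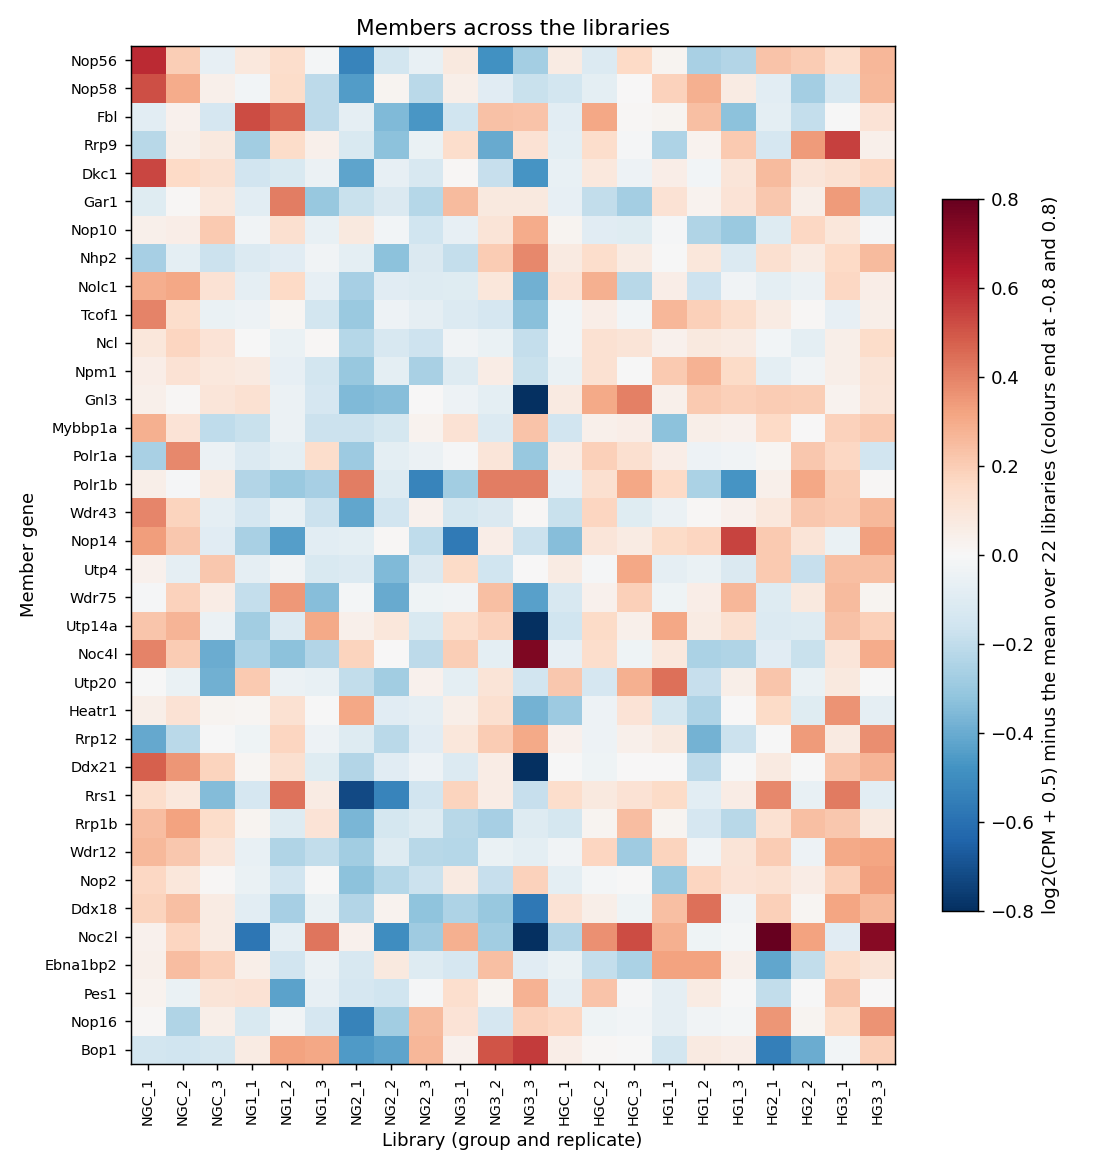
Level of each member (vertical axis) in each of 22 libraries (horizontal axis) as log2(CPM + 0.5) minus the member's mean over the 22 libraries, with colours that end at -0.8 and 0.8. NGC replicate 1 is far above the mean for Nop56, Nop58 and Dkc1, NG2 replicate 1 is mostly below it, and NG3 replicate 3 is far below the mean for Gnl3, Utp14a, Ddx21 and Noc2l and far above the mean for Noc4l and Bop1.

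In high glucose the members' medians lay nearer 0. The median log2 change of the members was -0.05 in HG1, 0.04 in HG2 and 0.13 in HG3 against the shared HGC libraries, with 23, 16 and 6 of 36 below 0 (50.2%, 50.7% and 50.1% of all genes). None was called in any of the 3 comparisons (0% of all genes in either direction in each). At an unadjusted p under 0.05, 2 members were higher and 0 lower in HG1 (4.40% and 3.38% of all genes). In HG2, 0 were higher and 1 was lower (2.39% and 2.95%), and in HG3, 1 was higher and 0 lower (2.12% and 2.39%). The medians of HG1 and HG2 changed sign under some alternatives, so no direction is read from them. For HG3, 11 members had libraries above and 0 below all HGC libraries (10.8% and 10.1% of all genes), Ddx21 and Wdr12 among them.

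Set side by side at dose label 2, most members stood higher in high glucose. In HG2 against NG2, 32 of 36 members were above 0 (48.2% of all genes) with a median of 0.27 (all genes -0.01), and 0 were called by edgeR or DESeq2 (0.610% of all genes called higher and 0.151% lower by edgeR). At an unadjusted p under 0.05, 12 were higher and 0 lower (5.28% and 5.24% of all genes), and 18 had HG2 libraries above all NG2 libraries and 1, Ebna1bp2, below them (12.7% and 18.9% of all genes). Rrs1 had the lowest p, with a log2 change of 0.69 ± 0.21 (edgeR adjusted p = 0.123). With only those 2 groups in the fit, edgeR called Nop56 and Gnl3, of 280 genes in all, against 101 genes with all groups in the fit. The interaction asked whether the change from control to dose label 2 differed between the media. Its median over the members was 0.27, with 34 of 36 above 0 (49.2% of all genes) and 0 called by edgeR (0% of all genes in either direction). At an unadjusted p under 0.05, 10 were positive and 0 negative (2.70% and 3.67%). Dkc1 had the lowest p there, with an interaction of 0.71 ± 0.19 (edgeR adjusted p = 0.459).

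Averaged over control and doses, 6 of the 36 members rose in high against normal glucose and 0 fell, at an edgeR adjusted p under 0.05. Of all tested genes 5.71% rose and 4.38% fell. The median over the members was 0.14 (all genes -0.01), and 32 of 36 were above 0 (47.1% of all genes). This comparison contains NG2 as 1 of 4 normal-glucose groups.

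Ddx18, an RNA helicase of large subunit assembly, had the lowest p. It was at 59.9, 62.5 and 55.2 CPM in NGC, 49.8, 43.8 and 51.0 in NG1, 44.8, 53.9 and 42.2 in NG2, and 44.4, 42.7 and 35.3 in NG3. In high glucose Ddx18 was at 57.3, 54.5 and 51.6 CPM in HGC, 62.5, 72 and 51.8 in HG1, 60.4 and 53.4 in HG2, and 65.9 and 63.4 in HG3. The controls overlapped, while all libraries of HG1 and HG3 lay above those of NG1 and NG3. Ddx18 rose by 0.34 ± 0.08 on the log2 scale (edgeR adjusted p = 0.00288). It has 2 similar pseudogenes, so its counts are uncertain.

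Gnl3, which encodes the GTPase nucleostemin of the nucleolus, was at 134, 131 and 139 CPM in NGC, 141, 126 and 118 in NG1, 102, 103 and 130.3 in NG2, and 126, 123 and 64.3 in NG3. In high glucose Gnl3 was at 137, 160.1 and 172 CPM in HGC, 134, 150.1 and 148 in HG1, 149.6 and 149 in HG2, and 132 and 139 in HG3. All high-glucose libraries were at 132 CPM or more, and NG3 replicate 3 was the lowest of all. Gnl3 rose by 0.33 ± 0.09 (edgeR adjusted p = 0.0112). Nop14, Wdr12, Nhp2 and Npm1 rose by 0.28, 0.23, 0.21 and 0.16. Ddx18 and Gnl3 passed in each of the 22 fits with 1 library left out, whereas Nop14, Npm1, Wdr12 and Nhp2 were called in 13, 9, 8 and 6 of them. With library totals in place of TMM factors only Ddx18 and Gnl3 of the members were called, of 1527 genes in all.

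Without dose label 2 in either medium, 1 of 36 members rose, Ddx18 (log2 change 0.34, edgeR adjusted p = 0.0105), and 0 fell, where 4.59% of all genes rose and 2.72% fell. The median over the members was 0.10, with 32 of 36 above 0 (48.2% of all genes). Between the controls alone the median had the opposite sign: in HGC against NGC 22 of 36 were below 0 (51.7% of all genes) with a median of -0.09, and 0 were called (1.89% of all genes higher, 0.392% lower). At an unadjusted p under 0.05, 1 was higher and 4 were lower there (6.68% and 5.26%).

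**Figure D5:**
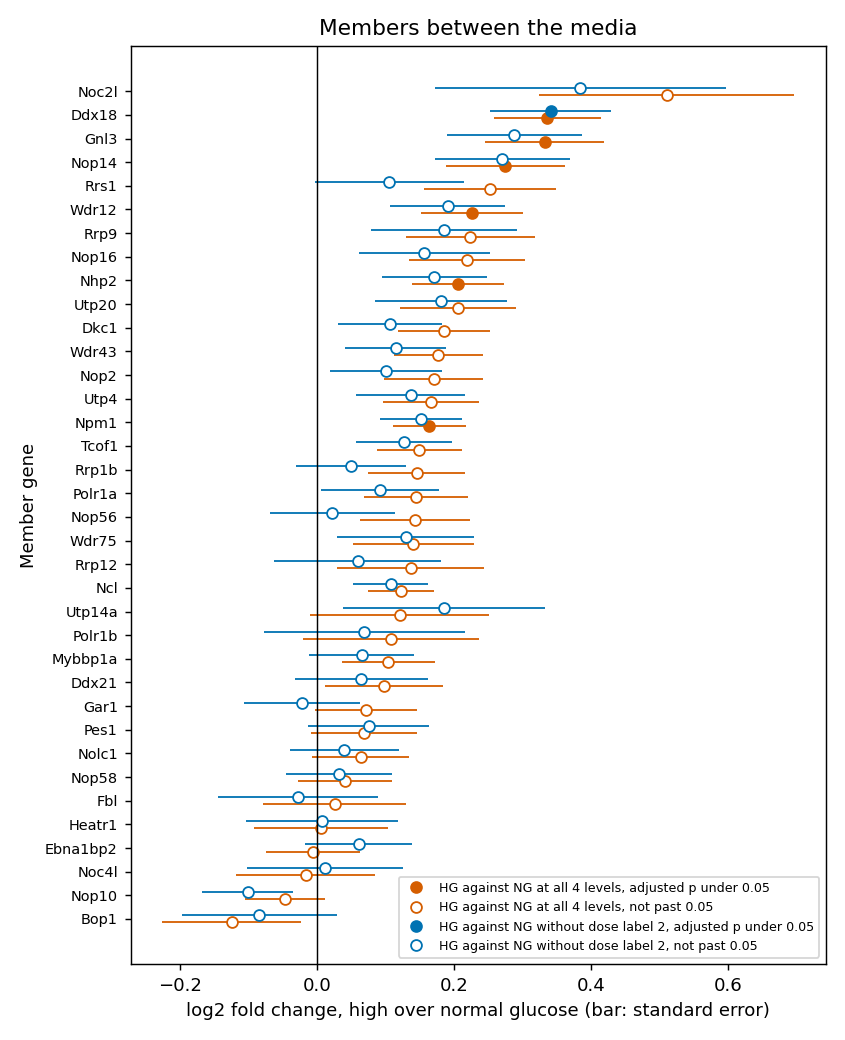
Log2 fold change of each member in high over normal glucose (horizontal axis, bars of 1 standard error) over all 4 treatment levels in orange and without dose label 2 in blue, with filled points for an edgeR adjusted p under 0.05. The 6 filled orange points are Ddx18, Gnl3, Nop14, Wdr12, Nhp2 and Npm1, and Ddx18 is the only filled blue point.

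The rest of the pathway was read from 121 other biogenesis genes, of which 118 were tested. In NG2 against NGC, 101 of the 118 were below 0 (48.9% of all genes) with a median of -0.18. There 0 were called by edgeR (0% of all genes lower, 0.00753% higher). At an unadjusted p under 0.05, 28 were lower and 0 higher (3.16% and 3.30% of all genes). Against the other 7 groups, 91 were below 0 (47.0% of all genes) with a median of -0.13. There 1 was called lower (0.233% of all genes lower, 0.0527% higher), Polr1g, a subunit of RNA polymerase I. Polr1g was at 49.1, 41.6 and 35.1 CPM in NGC, 36.7, 36.7 and 36.8 in NG1, 24.4, 28.2 and 28.1 in NG2, and 41.8, 30.2 and 31.9 in NG3. In high glucose Polr1g was at 40.4, 46.9 and 48.2 CPM in HGC, 43.2, 37.9 and 35.9 in HG1, 40.0 and 48.8 in HG2, and 48.0 and 39.3 in HG3. All NG2 libraries lay below all 19 others (0.0678% of all genes). Polr1g fell by 0.64 ± 0.13 on the log2 scale against the other 7 groups (edgeR adjusted p = 0.0179). Those 7 include all high-glucose groups. Against NGC and against the other 3 normal-glucose groups neither Polr1g nor any other listed RNA polymerase I gene was called. The smallest edgeR adjusted p among the other RNA polymerase I genes, Polr1g included, were 0.170 and 0.599 there. Fits with 1 library left out were not read for Polr1g. In high against normal glucose at all 4 levels, 7 of the 118 rose (5.93%) and 2 fell (1.69%), where 5.71% of all genes rose and 4.38% fell. Of the 7 that rose, 1 was listed with RNA polymerase I, 5 with the small subunit and 1 with the large subunit. Those that fell were Ubtf, a factor of ribosomal DNA transcription, and Emg1, a methyltransferase of the small subunit RNA.

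Neighbouring programmes had medians nearer 0 in NG2 against NGC. Of all tested genes 48.9% were below 0 there, and 3.16% were lower and 3.30% higher at an unadjusted p under 0.05. The 77 tested genes of cytosolic ribosomal proteins had a median of -0.11 with 68 below 0, the 13 of the RNA exosome and its cofactors, which are counted among the 118, a median of -0.06, and the 16 of nucleotide synthesis a median of -0.17 with 13 below 0. None of these genes was called by edgeR, and 6, 1 and 2 of them were lower at an unadjusted p under 0.05. Myc itself was at 15.2, 14 and 10.9 CPM in NGC and 16.2, 11 and 13.8 CPM in NG2, and these groups overlapped. In high glucose Myc was at 2.61 to 13.4 CPM, and over all 4 levels it fell by 0.77 ± 0.21 on the log2 scale (edgeR adjusted p = 0.0164) while 6 members rose. The part of Myc in these values was not tested. Genes of mitosis were near the control in NG2 (median -0.06, 13 of 20 below 0).

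Other measures moved with NG2 or with its libraries in part. Among 7 tested fibroblast and pericyte markers, 7 had positive changes in NG2 against NGC with a median of 0.18. Among 6 tested neuron markers 4 had positive changes, where 51.1% of all genes did. Of 3 tested oligodendrocyte and microglia markers 3 had positive changes. Of 2 tested astrocyte and tanycyte markers 1 did, and 1 was lower at an unadjusted p under 0.05 (3.16% of all genes). Against the other 7 groups 5 of the 7 fibroblast and pericyte markers had positive changes, with a median of 0.04. The summed level of the 8 listed fibroblast and pericyte genes was 4602 to 4967 CPM in NGC, 4973 to 5066 in NG1, 5096 to 5626 in NG2 and 3453 to 4776 in NG3. In high glucose it was 5184 to 5491 CPM in HGC, 5667 to 5786 in HG1, 5117 to 5523 in HG2 and 4616 to 5452 in HG3, so NG2 overlapped with HGC, HG2 and HG3. For the 10 listed neuron markers the summed level was 129 to 136 CPM in NGC, 138 to 163 in NG1, 153 to 157 in NG2 and 124 to 162 in NG3, and 116 to 137 CPM over the high-glucose groups, so NG2 lay within the ranges of NG1 and NG3.

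Nuclear and other long noncoding RNAs were listed as signs of RNA quality. Of 7 listed, 5 were tested, and all 5 had negative changes in NG2 against NGC with a median of -0.28, as large as that of the members. None was called by edgeR, and 2 were lower at an unadjusted p under 0.05. Of all genes 48.9% had negative changes there, and 3.16% were lower at that threshold. Against the other 7 groups their median was -0.04, with 4 of 5 below 0, and in NG1 and NG3 against NGC it was -0.20 and -0.55. Their summed level was 4367 to 5864 CPM in NGC, 4516 to 5312 in NG1, 4434 to 5107 in NG2 and 1969 to 4548 in NG3, and 4170 to 5702 CPM over the high-glucose groups, so NG2 and NGC overlapped. Of 13 mitochondrial transcripts 8 were tested, and 6 of 8 were below 0 in NG2 against NGC with a median of -0.14, 0 called and 1 lower at an unadjusted p under 0.05. Their summed level was 33058 to 39285 CPM in NG2 and 34441 to 41812 CPM in NGC, and these ranges overlapped. The part of the markers and of RNA quality in the result was not tested.

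The members' median GC content of 50.2% and median exon length of 4110 bases were near those of all tested genes with a value (48.9% and 4199 bases), and with each library's trend on GC content removed the median in NG2 against NGC was -0.29. With NG2 replicate 1 thinned to the depth of the others the median was also -0.29.

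Across the 22 libraries the genes whose log2 CPM followed the members' mean most closely were Nars, a cytosolic asparaginyl-tRNA synthetase (Pearson r 0.83), Ndufaf4, an assembly factor of respiratory complex I (0.80), Slc7a1, a transporter of cationic amino acids (0.80), Crim1 (0.78) and Hnrnpab (0.77). These correlations describe libraries that share groups and normalization, and they carry no test. Of the 36 members, 18 overlap another annotated gene. For 6 (Npm1, Nop56, Ddx18, Pes1, Ddx21 and Wdr12) a pseudogene shared a stretch of at least 200 bases at 95% identity or more. Wdr12 matched 6 genes in this way, Cxcr2 and Tmod3 among them, so its match need not be a copy. Reads that fitted several genes (3.46 to 4.15% of a library's reads) or several places were set aside in counting. Such members may thus have lost reads, or gained misplaced ones. Variation among libraries was moderate for most members: the coefficient of variation of CPM over 22 libraries ran from 7.52% for Ncl to 33.0% for Noc2l, which was also among the least abundant, with 2.64 to 22.4 CPM.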

How the data were processed

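The deposited files hold raw counts of reads per gene, 1 file per library, which the authors did not normalize. Per the submitters' processing notes reads were handled with HTSeq 1.99.2, STAR 2.7.5c, DESeq2 3.16 and FastQC 0.11.9 on build GRCm39. No label or header says whether strand was used in counting. A PureLink RNA Mini extraction with DNase was followed by polyadenylated RNA libraries from the VAHTS Universal V8 kit, per the labels' protocols.

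Groups and replicate numbers were read from sample titles. HTSeq summary lines stayed out of library sizes and tests; reads outside genes took 14.4 to 20.6% of a library's reads and reads aligned to several places 16.5 to 18.9%. The counts were fitted with edgeR 4.0.16 (R 4.3.3; TMM factors, default low-count filter over 8 groups, 1 mean per group, robust quasi-likelihood F test), which kept 13281 genes with 14 residual degrees of freedom. In each of 14 comparisons, Benjamini-Hochberg adjustment ran over all tested genes, and the threshold was 0.05. CPM use library totals, and log2 changes are given with standard errors.

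The members and all gene lists were chosen with earlier results of these data known. Named in full are members past the threshold, or otherwise the 6 with the lowest p in NG2 against the other 7 groups, at least 1 per role, and, of other lists, Myc and genes with the lowest p. Polr1g was found under an older symbol (Cd3eap). Members that rose between the media, and Nop58, Fbl, Nolc1, Ddx21, Rrp1b and Bop1, were described after their values were seen. The comparison of NG2 with NG1 and NG3 and the removal of the GC trend were also added after seeing the data. Alternatives were DESeq2 1.42.0, other scaling, no filter, the replicate number as a block, other treatments of the identical library and each library left out. On simulated counts of 12937 genes, NG2 against NGC recovered 38.6% of genes changed 0.667-fold and 68.6% of those changed 0.5-fold, and 3.23% of its calls were false.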

Additional observations from a re-analysis of the deposited data

How the results depend on the processing

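The direction of the members in NG2 held under every alternative tried: the median log2 change ran from -0.33 to -0.23 against NGC and from -0.27 to -0.19 against the other 7 groups, the last value without NG2 replicate 1. Calls did not hold. Against NGC the members called were 4 by DESeq2, 4 without the low-count filter and 2 without NG3 replicate 3 and HGC replicate 2, and 0 to 0 with 1 library left out. All genes called there were 25 by DESeq2, 21 without the filter, 3 with library totals, 2 with only the groups compared and 17 without those 2 libraries, and 0 to 1 with 1 library left out. Against the other 7 groups the members called were 3 by DESeq2, 4 without those 2 libraries and 1 each without the filter, with the identical library kept in HG2, with it kept in HG3 and with the GC trend removed, and 0 to 4 with 1 library left out (4 without NG3 replicate 3). All genes called there were 95 by DESeq2, 71 without the filter, 25 with library totals, 93 without those 2 libraries and 59 with the GC trend removed, and 7 to 97 with 1 library left out (7 without NG2 replicate 1, 97 without NG3 replicate 3).

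In HG2 against NG2 the members called were 2 with only those groups, 2 with the identical library in HG2 and 1 without NG3 replicate 3 and HGC replicate 2. All genes called in those fits were 280, 193 and 187. In high against normal glucose the members called were 2 with library totals (1527 genes in all) and 2 to 8 with 1 library left out. Without dose label 2 they were 2 without the filter (953 genes in all) and 3 with the identical library in HG3 (1120). They were 1 to 4 there with 1 library left out. The median in HG1 against HGC was 0.00056 without NG3 replicate 3 and HGC replicate 2. In HG2 against HGC it was -0.0016 with the replicate block and ran from -0.021 to 0.044 with 1 library left out. In NG3 against NGC it was -0.12 with library totals and -0.12 without those 2 libraries, and it ran from -0.31 to -0.12 with 1 library left out. Such fits gave -0.12 to -0.021 for HGC against NGC, 0.24 to 0.33 for the interaction, -0.21 to -0.15 for NG2 against the other 3 normal-glucose groups and -0.16 to -0.076 for NG2 against NG1 and NG3. The cause was not tested.

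Same-numbered libraries did not deviate together (median correlation 0.01, from -0.11 to 0.17), and for other pairs of libraries the correlation ran from -0.13 to 0.13. No pairing by number was thus seen, but with 2 or 3 libraries per group a weak one could be missed. With the replicate block the member medians were -0.28 against NGC and -0.25 against the other 7 groups, and 0 members were called in either. A fit with only the groups compared adds nothing where all 8 groups enter. Depth and 2 or 3 libraries per group limit the precision. The simulation held no change as small as the members' median and no group of 2 libraries.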

Other observations

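Genes of mitosis differed between the media. In high against normal glucose at all 4 levels, 11 of 20 tested mitosis genes fell and 0 rose at an edgeR adjusted p under 0.05 (4.38% and 5.71% of all genes). Their median log2 change was -0.22, while 6 of 36 biogenesis members rose. The summed level of the mitosis genes was 4491 ± 199 CPM in NGC and 4425 ± 63.2 in NG2 (n = 3 each), and 3771 ± 73.1 CPM in HGC (n = 3) and 3612 ± 89.4 in HG2 (n = 2). Kif23, a kinesin of cytokinesis, and Ccnb2, a mitotic cyclin, had log2 changes of 0.36 and 0.31 in NG2 against the other 7 groups (edgeR adjusted p = 0.122 and 0.205). Those 7 include all high-glucose groups, where mitosis genes were lower. Over the 7 groups 19 of 20 mitosis genes were above 0 (median 0.10). Against the other 3 normal-glucose groups 7 of 20 were (median -0.02).

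Genes of the MYC and MAX network also differed between the media. Mxd4, Mxd3 and Mxi1, which encode proteins that compete with MYC for its partner MAX, fell in high glucose at all 4 levels, with log2 changes of -0.39, -0.37 and -0.36, and Mnt, another such protein, rose by 0.47 (edgeR adjusted p = 0.000403, 0.0235, 0.0277 and 0.00229). In NG2 against the other 7 groups the changes of Mxd4, Mxd3 and Mxi1 were 0.27, 0.39 and 0.34, and none passed the threshold. Those 7 include all high-glucose groups. Over the 10 tested genes of the network the median was 0.30 in that comparison and 0.04 against the other 3 normal-glucose groups. All of these values rest on comparisons that use the NG2 libraries more than once.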
